A study of Mus musculus with 20 samples.

Results

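The immediate-early transcription factor genes Fos, Fosb, Jun, Junb, Atf3, Egr1, Egr2, Egr3, Nr4a1 and Ier2 were followed in mouse ovary RNA. These 10 genes were chosen by name, as well-known genes that are transcribed within minutes of a stimulus, out of 23457 genes in the count files. All 10 were present in each of 20 libraries and all 10 passed the filter on low counts. The mice were females of the Ames dwarf stock, in which df/df homozygotes lack the pituitary cells that make growth hormone, prolactin and thyrotropin. Normal mice were heterozygous (N/df), so that they too carried a df allele, and dwarf mice were homozygous (df/df). Each genotype was sampled at 6 and at 22 months of age, with 5 libraries in each of the 4 groups, and no other treatment is given. The title of the series names reproductive ageing of these long-lived mice as its subject. The labels name the tissue as ovary, so each level is a mixture over follicle, luteal, stromal, vascular and immune cells.

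Immediate-early genes need no new protein for their induction. Growth factors reach them through ERK kinases, which phosphorylate ternary complex factors bound beside serum response factor at CArG boxes, and hormones that raise cyclic AMP reach them through CREB at cyclic AMP response elements. Fos and Jun proteins pair through leucine zippers to make the factor AP-1, EGR proteins bind GC-rich sites through zinc fingers, and Nr4a1 is an orphan nuclear receptor. In the ovary the luteinising hormone surge induces many of them in granulosa cells, and in rodents prostaglandin F2α induces Nr4a1 in the corpus luteum. Their messengers are short-lived, and they are also known to respond to dissection, lack of oxygen and cell stress.

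The bases before the start sites of Fos, Egr2, Junb and Atf3 are shown because each of these 4 genes was called in a comparison described below and has a promoter window in the RefSeq table (GRCm38.p6). Windows were searched for 7 of the 10 genes, with Egr3 and Ier2, which were also called, not among them. Each window holds the 250 bases before the start site, 5′ to 3′ on the strand of the gene. Capitals mark a match, on either strand, to TGACG, the core of the cyclic AMP response element, or, in Egr2, to a CArG box.
Fos (chr12:85473640-85473889, plus strand): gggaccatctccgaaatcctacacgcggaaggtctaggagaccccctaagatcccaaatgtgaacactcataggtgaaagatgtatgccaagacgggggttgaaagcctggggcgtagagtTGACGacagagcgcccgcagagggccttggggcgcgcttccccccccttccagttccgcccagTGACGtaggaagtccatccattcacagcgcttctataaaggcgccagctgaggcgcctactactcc
Egr2 (chr10:67537619-67537868, plus strand): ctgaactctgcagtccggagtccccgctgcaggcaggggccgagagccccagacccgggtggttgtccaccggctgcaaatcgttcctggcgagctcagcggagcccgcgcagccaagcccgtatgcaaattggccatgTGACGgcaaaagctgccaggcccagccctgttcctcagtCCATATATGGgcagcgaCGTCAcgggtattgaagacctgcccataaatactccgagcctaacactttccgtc
Junb (chr8:84978749-84978998, minus strand): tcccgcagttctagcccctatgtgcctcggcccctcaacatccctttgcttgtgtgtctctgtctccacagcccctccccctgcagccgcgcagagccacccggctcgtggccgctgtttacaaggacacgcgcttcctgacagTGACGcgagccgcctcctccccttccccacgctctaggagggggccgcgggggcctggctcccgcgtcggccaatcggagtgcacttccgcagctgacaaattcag
Atf3 (chr1:191183334-191183583, minus strand): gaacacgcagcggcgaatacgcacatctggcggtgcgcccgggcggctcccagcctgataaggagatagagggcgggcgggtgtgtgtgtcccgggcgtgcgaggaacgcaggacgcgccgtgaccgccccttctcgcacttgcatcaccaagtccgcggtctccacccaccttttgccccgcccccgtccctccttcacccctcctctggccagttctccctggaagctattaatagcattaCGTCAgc
Matches in Fos start at -129 and -66 relative to the start site, and those in Egr2 at -111 and -55, with the CArG box at -72. Junb has a match at -106 and Atf3 at -7. TGACG was found in 6 of the 7 windows, against 17.8% of all 32851 promoter windows of the same length. The CArG box was in 1 of 7, against 1.47% of all windows. The longer element TGACGTCA, which holds TGACG on both strands, was in 0 of 7 against 1.55%, the AP-1 site TGACTCA in 0 of 7 against 4.46% and the EGR site GCGTGGGCG in 0 of 7 against 0.536%. The AP-1 form TGACATCA, a known feature of the Jun promoter, was in 1 of 7, at -45 in Jun, against 2.93% of all windows. A match describes letters in a window and says nothing about binding in these ovaries. Bases farther upstream were not searched, so a window without a match does not show that the gene lacks the element.

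Library totals over genes lay between 1365640 and 22429386 counts in young (6-month) normal, 5186090 and 20266823 in old (22-month) normal, 14224520 and 36068284 in young dwarf, and 5399377 and 13448164 in old dwarf ovaries. Levels are given as CPM, the counts of a gene scaled to a common library total. That total includes the ribosomal RNA gene Rn45s. Rn45s held 14.8% of gene counts in normal 6-month replicate 3 and 2.40% to 10.0% in the other libraries. Markers of the ovary were above 0 in every library, among them Amh of granulosa cells, Zp3 of oocytes and Lhcgr of luteal and theca cells. Some values were near the floor, with lowest levels of 2.48 CPM for Amh (old normal) and 0.51 and 0.73 CPM for Zp3 and Lhcgr (young normal). The haemoglobin gene Hbb-b1 was at 0 in all 20, but summed blood markers ran from 2.90 to 30.6 CPM. The 0 of Hbb-b1 therefore does not show that blood RNA was absent. The oviduct secretory gene Ovgp1 ranged from 9.94 to 4758 CPM in young normal, 11.6 to 970.2 CPM in young dwarf, 1264 to 3053 CPM in old normal and 1465 to 2737 CPM in old dwarf libraries. A set of 3 libraries was left out as in doubt in an alternative fit, a choice made with earlier results of these data known. Normal 6-month replicate 2 had the 4758 CPM of Ovgp1 and the lowest summed granulosa and luteal markers (179 and 251 CPM), normal 6-month replicate 3 had the fewest counts, and normal 22-month replicate 3 had the highest summed macrophage and B cell markers (2163 and 1215 CPM). Replicates 1 and 4 of the old dwarf group were unusually alike, with a chi-square of 2.42 per degree of freedom over genes against 11.6 to 281 for the other 39 pairs of libraries within groups. An alternative summed them as 1 library.

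Per kilobase of exon, Egr1 and Jun were the most abundant members, at 41.2 and 40.7 CPM per kb over the 20 libraries. Ier2 (23.9), Nr4a1 (22.5) and Junb (21.7 CPM per kb) followed, and these 3 means lay closer together than the range of any of the 3 over libraries. Fos was at 7.78, Atf3 at 2.68, Egr3 at 2.23, Egr2 at 1.81 and Fosb at 0.982 CPM per kb. The low members rested on few reads in shallow libraries. In normal 6-month replicate 3 Egr2 and Egr3 had 2 counts each, Atf3 had 3 and Fosb had 4. In dwarf mice at 22 months Egr2 was read from 7 to 44 counts and Egr3 from 8 to 18.

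Fos encodes an AP-1 subunit (chr12:85473901-85477270, plus strand, mm10, as are all gene positions here). In normal ovaries it was at 14.6, 10.0, 8.79, 12.9 and 19.1 CPM in replicates 1 to 5 at 6 months, and at 14.0, 36.0, 11.7, 13.1 and 12.0 CPM at 22 months. In dwarf ovaries it was at 24.1, 23.5, 24.7, 22.8 and 23.7 CPM at 6 months, and at 7.06, 20.1, 12.2, 9.23 and 6.11 CPM at 22 months. All 5 young dwarf libraries lay above all young normal and all old dwarf libraries, whereas the old normal group overlapped both normal 6-month and dwarf 22-month values. Fos was lower at 22 than at 6 months in dwarf mice, with means of 10.9 ± 5.61 and 23.8 ± 0.693 CPM (SD, n = 5) and a log2 fold change of -1.19 ± 0.34 (SE, adjusted p = 0.0284). Adjusted p-values here are from edgeR's quasi-likelihood test with Benjamini-Hochberg adjustment over 16099 genes, and a gene is called when its value is under 0.05. The same test gave no call for Fos in normal mice with age (log2 0.38 ± 0.34, adjusted p = 0.516), where the sign turned without replicate 2 at 22 months (log2 -0.041).

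Fosb, a paralog of Fos (chr7:19302696-19310045, minus strand), was the least abundant member. It was at 1.67, 1.60, 2.93, 4.41 and 4.86 CPM in young normal libraries, and at 9.52, 15.8, 1.83, 3.86 and 3.66 CPM in old normal libraries. Young dwarf libraries held 2.90, 2.97, 4.31, 2.53 and 2.52 CPM, and old dwarf libraries 1.60, 4.74, 0.669, 0.448 and 1.30 CPM. Old normal mice were split, with replicates 1 and 2 far above the other 3, and old dwarf replicate 2 stood above its own group. Dwarf against normal at 22 months gave a fitted difference of log2 -2.08 ± 0.61, which did not pass (adjusted p = 0.0655). It passed with the 3 libraries in doubt left out (log2 -2.31, adjusted p = 0.0189).

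Jun (chr4:95049036-95052222, minus strand), which can form AP-1 alone or with a Fos protein, was not called in any comparison. Its levels were 244, 244, 105, 164 and 63.6 CPM in young normal and 153, 134, 98.7, 188 and 176 CPM in old normal libraries. They were 89.8, 153, 101, 73.6 and 63.2 CPM in young dwarf and 98.6, 129, 94.9, 106 and 114 CPM in old dwarf libraries. All 4 groups overlapped, and the spread was widest in young normal mice. The smallest adjusted p was that of dwarf against normal at 6 months (log2 -0.81 ± 0.28, adjusted p = 0.111), and it was at least 0.323 in the other comparisons of groups.

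Junb, a Jun paralog that can hold back Jun activity (chr8:84976909-84978748, minus strand), was at 45.7, 48.9, 47.6, 44.0 and 17.5 CPM in young normal and at 54.4, 103, 45.6, 57.5 and 40.3 CPM in old normal libraries. In dwarf mice it was at 29.0, 47.2, 30.4, 33.9 and 28.6 CPM at 6 months and at 21.0, 34.4, 21.6, 22.8 and 25.9 CPM at 22 months. Every old dwarf library lay under every old normal library. The means were 25.1 ± 5.51 and 60.1 ± 24.9 CPM (SD, n = 5), and the log2 fold change of dwarf against normal at 22 months was -1.35 ± 0.28 (adjusted p = 0.0113). Replicate 2 of the old normal group was its highest, and without it the value was -1.03. The call held in each of 10 fits that left out 1 library of these groups.

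Atf3 (chr1:191170297-191183333, minus strand) belongs to the ATF/CREB family and is induced by many kinds of stress. It was at 3.60, 4.30, 2.20, 4.01 and 1.48 CPM in young normal and at 9.62, 5.75, 4.24, 8.68 and 9.53 CPM in old normal libraries. In dwarf mice it was at 3.96, 9.44, 4.24, 3.80 and 4.35 CPM at 6 months and at 5.99, 7.90, 5.21, 4.48 and 3.33 CPM at 22 months. Normal 22-month replicate 3 (4.24 CPM) lay just under the highest young normal library (4.30 CPM), and the other 4 old normal libraries lay above all young ones. Atf3 rose with age in normal mice, from 3.12 ± 1.22 to 7.57 ± 2.43 CPM (SD, n = 5), with log2 1.23 ± 0.34 and adjusted p = 0.0349. In dwarf mice the age difference was log2 0.00 ± 0.32 (adjusted p = 0.994), and without dwarf 6-month replicate 2 it was 0.31.

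Egr1, the founding EGR factor, is needed in the pituitary for the luteinising hormone beta subunit and is induced in follicles at ovulation. It was at 185, 17.4, 46.1, 89.5 and 290.1 CPM in young normal and at 151, 91.8, 68.6, 155 and 114 CPM in old normal libraries. Dwarf ovaries held 164, 134, 197, 158 and 180.3 CPM at 6 months and 95.5, 119.7, 59.4, 108 and 105 CPM at 22 months. Old dwarf libraries lay under all young dwarf libraries, but the fit over all groups did not call the difference (log2 -0.86 ± 0.47, adjusted p = 0.233). The lowest young normal values were those of replicates 2 and 3, and without the 3 libraries in doubt the dwarf age difference passed (log2 -0.82, adjusted p = 0.0272).

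Egr2 (chr10:67537869-67542188, plus strand), also called Krox20 and known for hindbrain patterning and myelination, had the smallest p of the members in both comparisons that involve old dwarf mice. It was at 6.55, 2.55, 1.46, 6.42 and 8.56 CPM in young normal and at 9.82, 6.10, 8.37, 8.10 and 11.1 CPM in old normal libraries. In dwarf mice it was at 5.80, 4.75, 6.19, 3.94 and 5.99 CPM at 6 months and at 2.80, 2.47, 3.27, 1.52 and 1.30 CPM at 22 months. All 5 old dwarf libraries lay below all old normal and all young dwarf libraries. Old dwarf mice had 2.27 ± 0.841 CPM against 8.70 ± 1.89 CPM in old normal mice (SD, n = 5), a 4.02-fold difference (log2 -2.01 ± 0.35, adjusted p = 0.00343). This call held in each of 10 fits that left out 1 library. Against young dwarf mice, at 5.33 ± 0.959 CPM, Egr2 was lower by log2 -1.30 ± 0.34 (adjusted p = 0.0212).

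Egr3 (chr14:70077445-70080157, plus strand), an EGR paralog known for muscle spindle development, was at 3.98, 2.18, 1.46, 4.06 and 5.91 CPM in young normal and at 4.98, 3.78, 10.1, 3.47 and 2.69 CPM in old normal libraries. Dwarf ovaries held 2.71, 2.73, 3.64, 1.55 and 2.27 CPM at 6 months and 2.13, 1.78, 1.04, 1.16 and 1.48 CPM at 22 months. The old groups did not overlap, and normal 22-month replicate 3, in doubt, was the highest of all 20 libraries. Dwarf against normal at 22 months was called at log2 -1.84 ± 0.40 (adjusted p = 0.0145). Without normal 22-month replicate 3 the value was -1.36, still called, and without dwarf 22-month replicate 4 the adjusted p was 0.055.

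Nr4a1 (chr15:101266846-101274794, plus strand), whose product Nur77 regulates steroid enzyme genes in rodents, was not called in any comparison over all libraries. It was at 114, 17.3, 54.9, 105 and 73.3 CPM in young normal and at 76.7, 73.1, 27.1, 56.3 and 35.4 CPM in old normal libraries. In dwarf ovaries it was at 49.8, 48.7, 135, 47.1 and 47.1 CPM at 6 months and at 26.4, 52.9, 26.2, 29.7 and 18.0 CPM at 22 months. Of the young dwarf libraries 4 lay within 47.1 to 49.8 CPM with replicate 3 far above, and of the old dwarf libraries 4 lay under all young ones with replicate 2 above. The age difference in dwarf mice was log2 -1.18 ± 0.44 (adjusted p = 0.0895) and -0.70 without dwarf 6-month replicate 3.

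Ier2 (chr8:84661331-84662852, minus strand) encodes a small nuclear protein of the early response. It was at 44.9, 40.1, 41.7, 37.7 and 30.6 CPM in young normal and at 38.6, 63.5, 28.2, 53.4 and 27.0 CPM in old normal libraries. In dwarf mice it was at 36.5, 42.4, 56.5, 30.0 and 35.8 CPM at 6 months and at 25.7, 26.6, 21.7, 25.6 and 19.8 CPM at 22 months. The highest old dwarf library (26.6 CPM) lay just under the lowest old normal one (27.0 CPM), and old dwarf mice also lay under all young dwarf mice. The log2 fold change was -0.90 ± 0.22 (adjusted p = 0.029) against old normal mice and -0.83 ± 0.22 (adjusted p = 0.0223) against young dwarf mice.

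**Figure D1:**
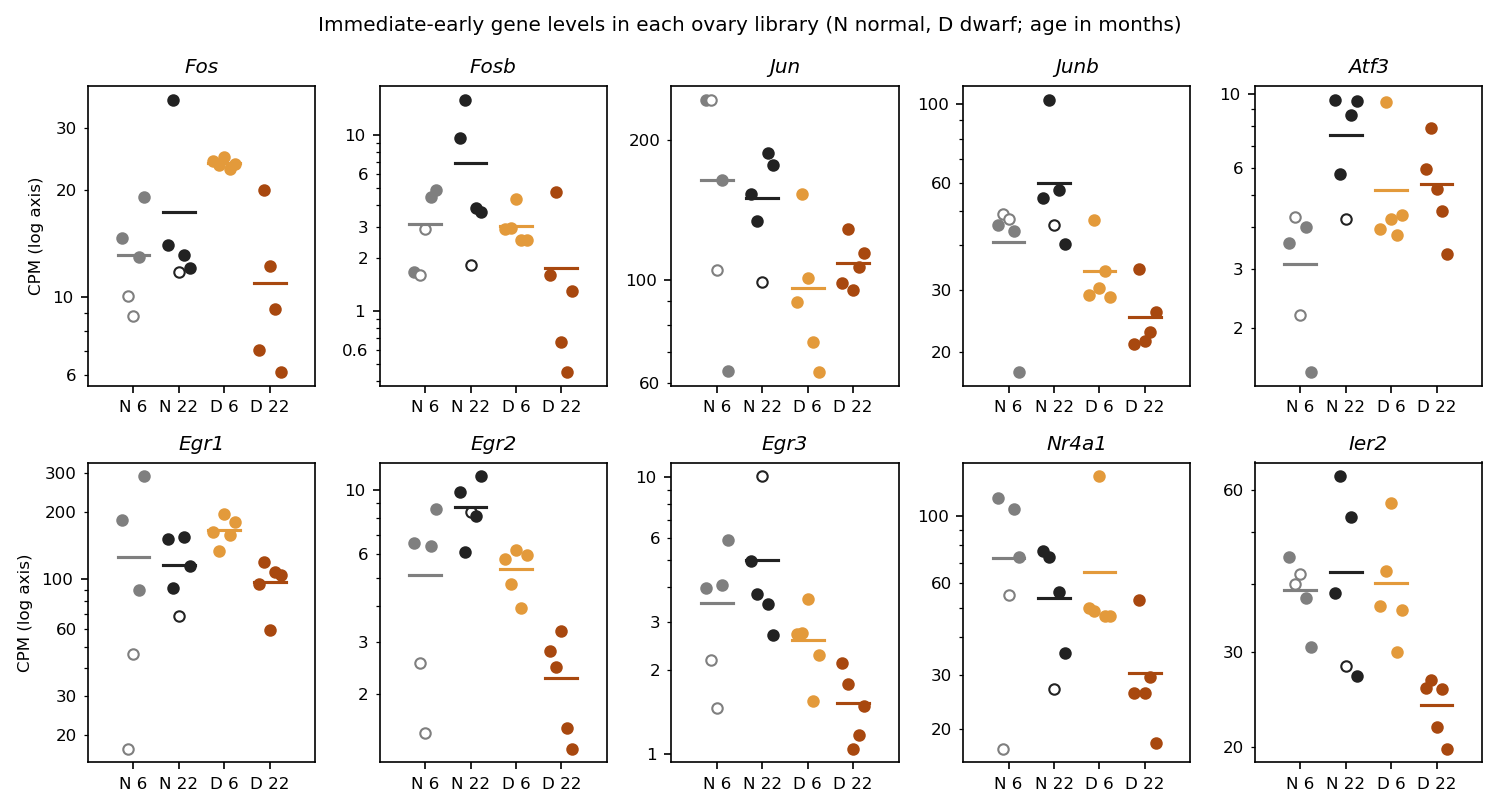
Level of each member in each of 20 libraries, in CPM on a log axis, by group (N normal, D dwarf, age in months); lines are group means and open circles are the 3 libraries in doubt. The 5 dwarf 22-month values of Junb, Egr2, Egr3 and Ier2 lie under all 5 normal 22-month values, and Fos in young dwarf mice lies within 22.8 to 24.7 CPM.

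With age in normal mice the count of called members was near the share of all genes. Atf3 was called higher, and 0 were called lower, so that 1 of 10 members was called against 6.75% of all genes tested (called higher 2.6%). The median log2 fold change of the members was 0.43, against -0.02 over all genes, with 7 members above 0 and 3 below. The Atf3 call was lost in 7 of 10 fits with 1 library left out, all but those without normal 6-month replicate 2 or normal 22-month replicates 2 or 3, with adjusted p up to 0.0856. Junb and Fosb rested partly on normal 22-month replicate 2, without which their log2 values went from 0.54 and 1.14 to 0.27 and 0.62, neither of them called.

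Of 30 other early genes tested with age in normal mice, 0 were called higher and 1 lower, the G protein regulator Rgs2 (log2 -1.12 ± 0.30, adjusted p = 0.0299), with a list median of 0.30. Of 22 upstream regulators (ERK kinases, serum response factor and its cofactors, CREB) 0 were called. Among 13 partners and inhibitors Nab2, a corepressor that binds EGR proteins, was lower (log2 -0.66 ± 0.16, adjusted p = 0.0221). Of 14 heat-shock genes 5 were called lower and 0 higher, among them the chaperones Dnajb1 (log2 -0.87), Serpinh1 (-0.84), Hspa8 (-0.52) and Hspa1a (-1.74), and the list median was -0.58. Of 15 hypoxia genes Ndrg1 (log2 1.04) and Pdk1 (0.85) were higher and Vegfa (-0.60) was lower, and of 10 genes of the integrated stress response, to which Atf3 itself answers, 0 were called. Cell markers moved in the same comparison. Of 7 B cell and plasma cell markers 6 were called higher (list median log2 5.11), and their sum ran from 6.29 to 46.3 CPM at 6 months and from 51.9 to 1215 CPM at 22 months. Of 7 markers of T and natural killer cells 4 were called higher (2.56; sums of 7.45 to 18.3 and 11.3 to 121 CPM), and of 9 macrophage markers 3 were (1.28; sums of 282 to 519.9 and 690.3 to 2163 CPM). Of 10 oocyte markers 8 were called lower (-4.06), with sums of 5.39 to 497 CPM at 6 months and 7.04 to 47.8 CPM at 22 months. The 5.39 CPM was that of 6-month replicate 2, in doubt, and the remaining 6-month sums were at least 262 CPM. The part of these genes and cells in the Atf3 result was not tested, and in RNA from whole ovary fewer cells of a type and less RNA per cell cannot be told apart.

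With age in dwarf mice Fos, Egr2 and Ier2 were called lower and 0 members were called higher, which is 3 of 10 against 11.2% of all genes (called lower 8.27%). The groups did not overlap for Fos, Egr1, Egr2 and Ier2, that is 4 of 10 against 12.2% of all genes for that direction. The members' median log2 fold change was -0.86, against 0.00 over all genes, with 8 members below 0 and Jun (0.11) and Atf3 (0.00) at or just above it. This count depended on single libraries: 0 members were called without replicate 3 or 5 of the young or replicate 4 or 5 of the old dwarf group, 1 without young replicate 1 or old replicate 3, and 2 without young replicate 4 or old replicate 1. Without the 3 libraries in doubt, all of them from normal mice, 6 members were called lower, the added ones being Egr1, Egr3 (log2 -0.82, adjusted p = 0.043) and Nr4a1 (log2 -1.13, adjusted p = 0.0268). In that fit 4697 of 16366 genes were called, 2515 of them lower. The fit over all libraries called 1802 of 16099, with 1332 lower.

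Of 30 other early genes 5 were called lower and 0 higher in the same comparison, with 17 values below 0, 13 above and a list median of -0.04. The connective tissue factor gene Ctgf went from 550.5 ± 111 to 117 ± 17.7 CPM (SD, n = 5; log2 -2.32 ± 0.30, adjusted p = 0.00039), and its relative Cyr61 (log2 -2.14), the growth regulator Myc (-1.86) and Rgs2 (-1.34) were also lower. Of the 22 upstream regulators 3 were called lower. Among them Srf, which encodes serum response factor, fell from 185 ± 28.9 to 119.3 ± 14.8 CPM (log2 -0.71 ± 0.13, adjusted p = 0.00371), and the ERK pathway kinase Map2k1 (-0.73) was lower. Mafk, a small Maf partner, and Nab2 were lower (1.99-fold and log2 -0.53), 2 of 13. Of 10 feedback genes of ERK, Spry2 was higher (log2 0.62) and 0 were lower. Heat-shock genes were mixed, with Dnaja1 higher (log2 0.50) and Serpinh1 (-0.98), Hsp90ab1 (-0.49) and Hspa8 (-0.46) lower of 14, and of 15 hypoxia genes 0 were called (list median 0.20). Of 15 genes of the luteinising hormone response Pde4d was higher (log2 0.77), and of 10 genes of growth hormone, prolactin and STAT5 0 were called. The thyroid hormone receptor gene Thrb was higher (log2 0.77), 1 of 8 thyroid hormone genes. Of 10 oocyte markers 8 were called lower with age in dwarf mice (list median log2 -2.68), and their sum ran from 385 to 573 CPM at 6 months and from 58.2 to 94.5 CPM at 22 months. Of 7 adipocyte markers 6 were called higher (2.94), with sums of 18.2 to 76.3 CPM and 116 to 368 CPM. Of 10 granulosa markers 1 was called lower (-1.01), with sums of 2381 to 3908 CPM and 1095 to 2095 CPM. Surface epithelium markers had 2 of 8 called higher (1.39), with sums of 563 to 1050 CPM and 1271 to 1631 CPM. Theca and stroma markers had 2 of 8 called higher and 1 lower (-0.62; sums of 1769 to 2701 and 2124 to 2771 CPM). Oviduct markers had 0 of 9 called, with 8 values above 0 (1.18; sums of 331 to 1913 and 2317 to 4054 CPM). Their part in the fall of Fos, Egr2 and Ier2 was not tested.

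Dwarf and normal mice at 6 months gave 0 calls among the 10 members with edgeR, against 4.57% of all genes. At an unadjusted p under 0.05 there were 2, Fos (log2 0.82 ± 0.34, adjusted p = 0.187) and Jun (log2 -0.81, adjusted p = 0.111), against 18.4% of all genes. DESeq2 called 0, and limma voom called these 2. Fos was the single member whose groups did not overlap, with dwarf higher, a pattern of 4.07% of all genes. The median log2 fold change of the members was -0.03, against -0.04 over all genes, and Egr2 (0.00) and Ier2 (0.01) were nearest to 0. Without normal 6-month replicate 5, Jun was called at log2 -1.06.

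Of 30 other early genes 4 were called higher and 0 lower in dwarf mice at 6 months. Ctgf was at 550.5 ± 111 CPM in dwarf and 85.4 ± 38.4 CPM in normal mice (SD, n = 5; log2 2.67 ± 0.30, adjusted p = 0.000173), and Cyr61 (log2 1.66), Rgs2 (1.14) and the zinc finger gene Klf6 (0.72) were higher too. Of the partners, Rxra, a nuclear receptor that pairs with Nr4a1, was higher (log2 0.75), as was Mafk (0.68). Of 10 feedback genes of ERK, Etv5 was higher (log2 1.15, adjusted p = 0.00295) and 0 were lower, with a list median of 0.39. Of 14 heat-shock genes 4 were called lower in young dwarf mice (Dnaja1, Hsph1, Hspa8 and Hsp90aa1, log2 -0.50 to -1.47) with a list median of -0.71. Of the hypoxia genes Vegfa (log2 -1.23) and Aldoa (-0.66) were lower and Pdk1 (0.94) higher of 15. Of 10 genes of growth hormone, prolactin and STAT5, Cish, a STAT5 target (8.02-fold), and Stat5a (log2 -0.95) were lower, and of 15 genes of the luteinising hormone list Runx2 was lower (-3.32). The thyroid hormone receptor gene Thra was higher (log2 0.72), 1 of 8, and Chac1 of the integrated stress response was lower (-1.83), 1 of 10. Summed luteal markers ran from 251 to 14395 CPM in normal and from 1960 to 3599 CPM in dwarf mice, with 4 of 9 called lower. The 251 CPM was that of normal replicate 2, in doubt, and the remaining normal sums were at least 11209 CPM.

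At 22 months Junb, Egr2, Egr3 and Ier2 were called lower in dwarf than in normal mice and 0 members were called higher, 4 of 10 against 3.81% of all genes (called lower 1.86%). The same 4 had groups that did not overlap, against 2.07% of all genes for that direction. All 10 members had a negative log2 fold change, from -0.33 (Egr1) to -2.08 (Fosb), with a median of -0.90 against -0.04 over all genes. Leaving out 1 library gave 2 to 5 calls: Junb and Egr2 were called in all 10 such fits, Egr3 in 9 and Ier2 in 3. Ier2 was also not called with only the groups compared (adjusted p = 0.053) or with the 2 alike old dwarf libraries summed (0.078). The count was 2 without dwarf 22-month replicate 4, and 5, with Fosb, when normal 22-month replicate 3, dwarf 22-month replicate 2 or all 3 libraries in doubt were left out. Without the 3 libraries in doubt 1762 of 16366 genes were called, against 614 of 16099 over all libraries.

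**Figure D2:**
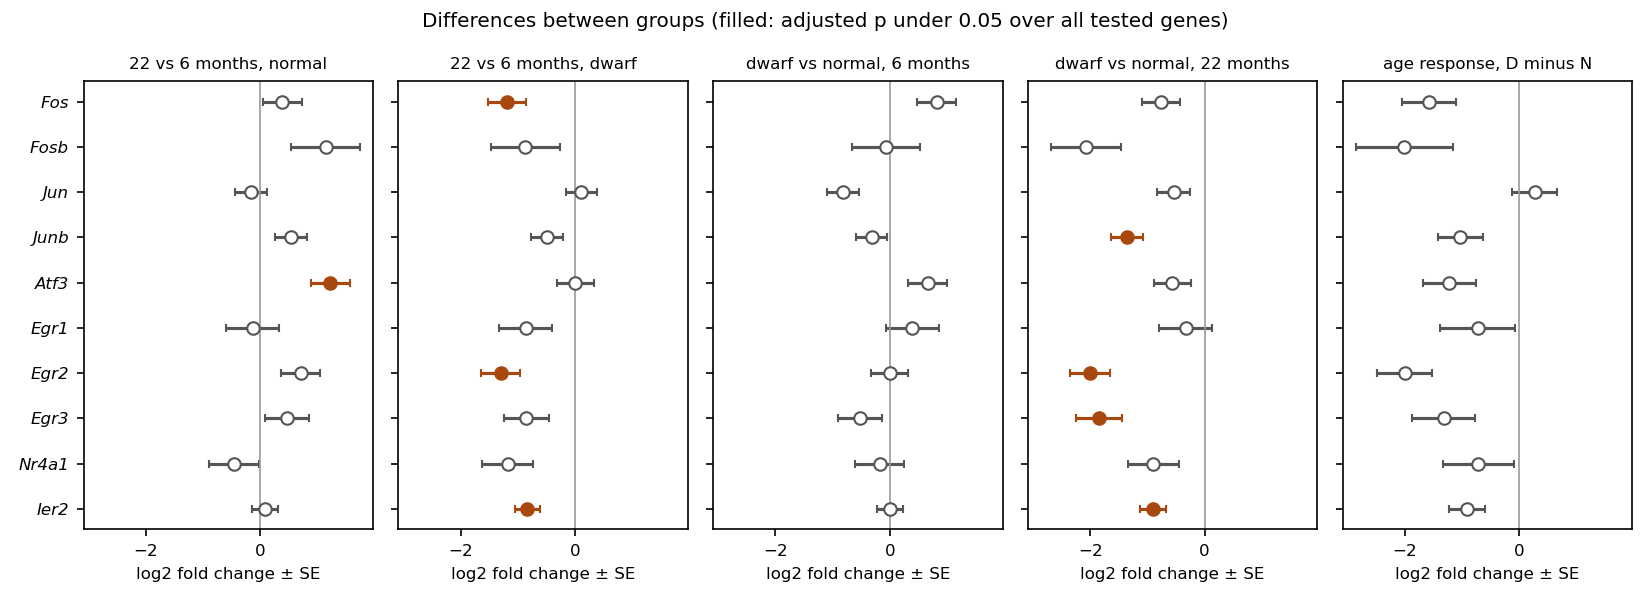
Log2 fold change ± SE of the 10 members in each comparison and, at the right, the difference of the age responses (dwarf minus normal); filled points have an adjusted p under 0.05 over all 16099 genes. All 10 values lie below 0 for dwarf against normal at 22 months, 4 of them called.

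Among other early genes at 22 months, Zfp36, which encodes a protein that speeds the decay of messengers such as those of cytokines (log2 -0.83 ± 0.20, adjusted p = 0.0261), and the leucine zipper gene Nfil3 (log2 -1.21 ± 0.30, adjusted p = 0.031) were lower in dwarf mice, 2 of 30, with 26 of 30 values below 0 and a median of -0.41. Of 22 upstream regulators and 13 partners and inhibitors 0 were called. The ERK target Etv5 was higher (log2 0.75), 1 of 10 feedback genes. Of 14 heat-shock, 15 hypoxia and 10 integrated stress genes 0 were called, with medians of -0.29, -0.15 and -0.07. Runx2 (log2 -3.17) was the called gene of 15 in the luteinising hormone list, whose median was -0.58. Of 10 genes of growth hormone, prolactin and STAT5, Cish (log2 -2.26) and Socs3 (-0.89) were lower and Igf1 (1.35) was higher, and of 8 thyroid hormone genes 0 were called.

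Cell markers moved in both directions between the old groups. Of 9 macrophage markers, Ctss and Lyz2 were called lower in old dwarf mice, all 9 values were below 0, and their sum ran from 690.3 to 2163 CPM in normal and from 423 to 627 CPM in dwarf mice. Of 9 luteal markers 3 were called lower, with sums of 2646 to 11727 CPM and 1692 to 4447 CPM. Of 8 theca and stroma markers 2 were called higher in dwarf mice (list median log2 0.88), with sums of 901 to 1951 CPM in normal and 2124 to 2771 CPM in dwarf mice. Of 10 granulosa markers 1 was called higher (0.67; sums of 427 to 1697 and 1095 to 2095 CPM). Of 10 oocyte markers 0 were called, all with values above 0 (1.84; sums of 7.04 to 47.8 and 58.2 to 94.5 CPM). Of 7 B cell and plasma cell markers and 7 of T and natural killer cells 0 were called, all with values below 0 (-2.68 and -1.05). No defining marker of these cells (Csf1r, Lhcgr, Cyp17a1, Amh, Zp3, Cd79a, Cd3e) was at 0 in any library of the 2 groups. The sources used here do not give the time between death and freezing. The part of cell makeup, heat-shock or hypoxia genes in the lower Junb, Egr2, Egr3 and Ier2 was not tested.

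**Figure D3:**
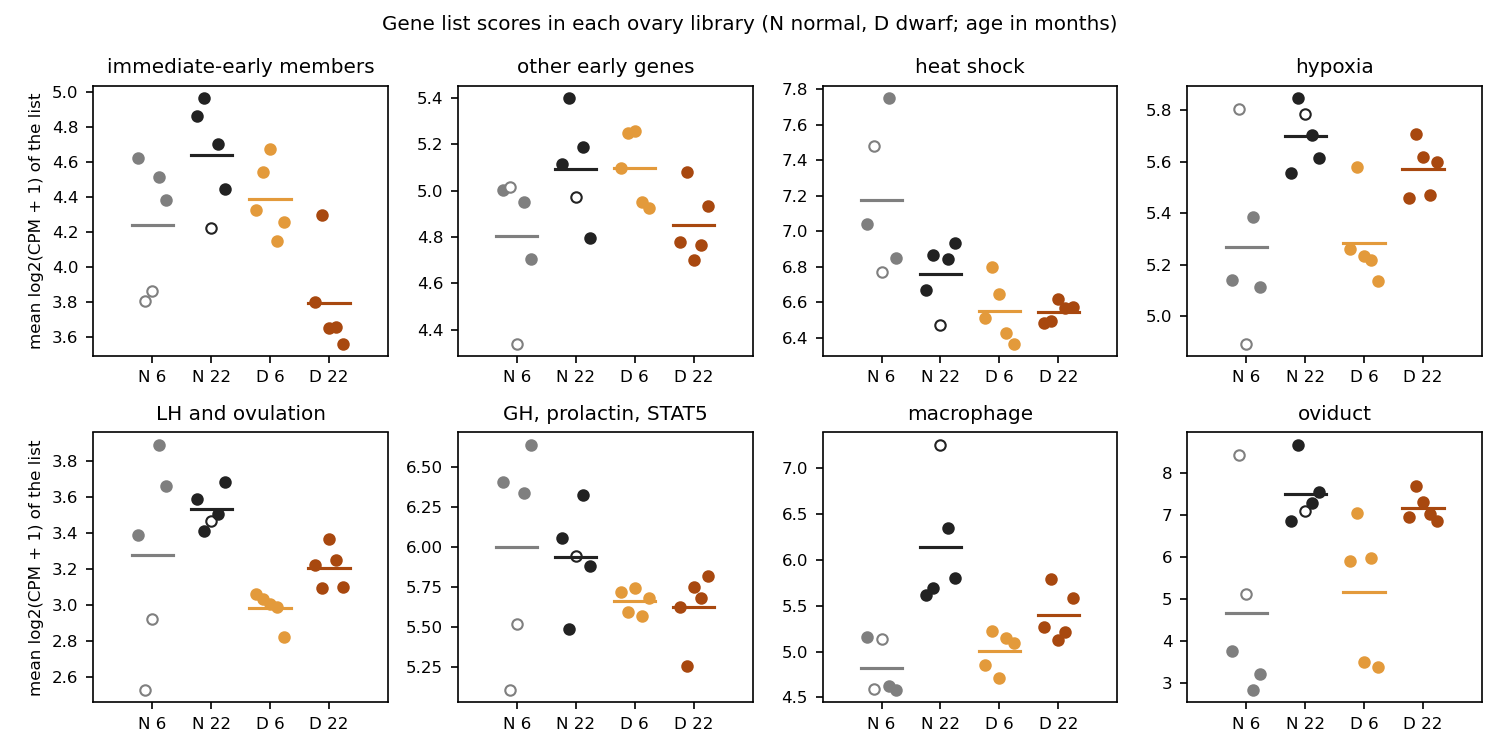
Mean log2(CPM + 1) of the 10 members and of 7 other gene lists in each library, by group (N normal, D dwarf, age in months); lines are group means and open circles the 3 libraries in doubt. The member score runs from 3.56 to 4.30 in old dwarf and from 4.22 to 4.97 in old normal mice, and the heat-shock score from 6.48 to 6.62 and from 6.47 to 6.93, so that both scores overlap between these groups.

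The age responses of the genotypes were set against each other in the same fit. With edgeR 0 of 16099 genes were called (0%), so 0 members were, while 1127 genes (7%) had an unadjusted p under 0.05. Members with such a p were Egr2 (log2 -2.01 ± 0.48, unadjusted p = 0.00051, adjusted p = 0.533), Fos (-1.58), Ier2 (-0.91), Junb (-1.03), Atf3 (-1.22), Egr3 (-1.32) and Fosb (-2.01), 7 of 10, each with a lower age response in dwarf mice. DESeq2 called 17 genes and limma voom 9, and in both Egr2 was the single member among them (adjusted p = 0.0343 and 0.0432). The calls of Atf3 higher with age in normal mice and Fos, Egr2 and Ier2 lower in dwarf mice were therefore not shown to differ between genotypes by the edgeR test. Comparisons that share a group also share its libraries, so the low old dwarf values enter both comparisons above in which members were called lower.

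Within groups the members did not move as a block. Over 45 pairs, Pearson's r of the deviations of log2(CPM + 1) from the group means had a median of 0.26 over 20 libraries, from -0.56 to 0.78, and was 0.14 without the libraries in doubt. These points share depth, dissection and cell makeup, and the values are descriptions. Jun went with Atf3 (r = 0.78) and Junb (0.59), Fos with Fosb (0.67), Egr1 with Nr4a1 (0.67) and Egr2 (0.63, these 2 values falling to 0.096 and 0.12 without the libraries in doubt), and Junb with Ier2 (0.61). Junb went against Egr2 (-0.56) and Egr1 (-0.43). By Spearman Junb stayed negative against Egr2 (-0.52) and Egr1 (-0.19). Against Egr1, Jun went from -0.26 to 0.20 and Atf3 from -0.16 to 0.07. Normal 6-month replicate 5, which enters all these values, was the highest of its group in Fos, Fosb, Egr1, Egr2 and Egr3. It was the lowest in Jun, Junb, Ier2 and Atf3. By contrast dwarf 22-month replicate 2 was the highest of its group in 8 members and dwarf 6-month replicate 3 in 7.

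**Figure D4:**
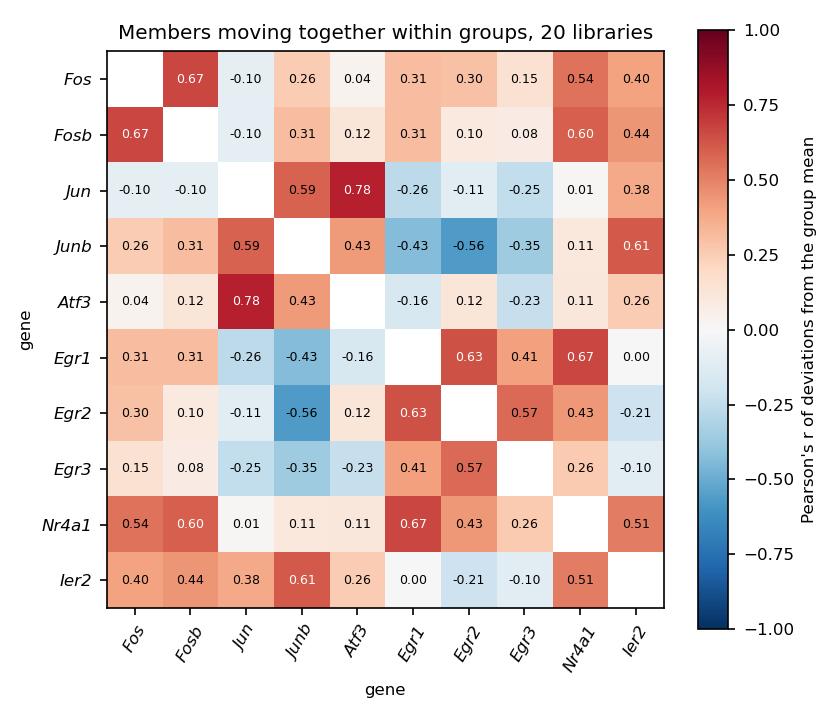
Pearson's r between members, from deviations of log2(CPM + 1) from the group mean in 20 libraries. Jun, Junb and Atf3 form a block of positive values (0.43 to 0.78) that is mostly negative against Egr1, Egr2 and Egr3. By Spearman, not shown, Jun and Atf3 were not negative against Egr1 (0.20 and 0.07) and Egr2 (0.00 and 0.18).

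Likeness was ranked over 12410 genes whose mean reached 5 CPM, and the gene whose within-group deviations were most like the mean of the members over 20 libraries was Sik1 (r = 0.81, and 0.84 without the libraries in doubt), the gene of a kinase that is itself induced by cyclic AMP. Dennd2c (0.76), Eif2d (0.76), Plk2 (0.75), Pvr (0.75), Ap3s2 (0.74), Slc40a1 (0.72), Foxo4 (0.72), Traf4 (0.72) and Mettl13 (0.72) followed. Without the libraries in doubt Eif2d was at 0.75 and Plk2 at 0.62, while Pvr went to 0.40, Slc40a1 to 0.42 and Mettl13 to 0.45 and the other 4 lay from 0.53 to 0.57. The least alike were Etv1 (-0.75), 2210404O07Rik (-0.69) and E230016K23Rik (-0.67), which went to -0.69, -0.29 and -0.18. As lists, other early genes had r = 0.64 with the member mean (Spearman's rho 0.63, 0.56 without the 2 libraries farthest from the median and 0.80 without the libraries in doubt), and partners and inhibitors had 0.65 (0.37 without the libraries in doubt). Luteinising hormone genes had 0.47, heat-shock genes 0.22 and hypoxia genes 0.00, and without the libraries in doubt these were -0.29, 0.10 and 0.43. Genes of growth hormone, prolactin and STAT5 had 0.32. Markers of granulosa, theca and stroma, oocyte and adipocyte cells had 0.33, 0.06, 0.33 and 0.20. Without the libraries in doubt these lists were at -0.51, -0.66, -0.64, -0.54 and 0.61. What these values rest on was not tested.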

How the data were processed

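RNA of 20 ovary libraries was analysed from the counts of reads per gene that the authors deposited, 1 file per library. The submitters' processing notes name the mm10 genome and, with no role given, HTSeq, TopHat2 2.0.10, TopHat, Bowtie2, edgeR and DESeq, but the strand setting is not given in the sources used here. Per the file headers and rows, 5 summary rows held 9.84 to 17.6% of each file and were left out of totals and tests. Unused columns numbered 0.

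The labels gave the groups, and each library was taken as 1 mouse, which the labels do not state, so p-values measure the spread between these libraries. In R 4.3.3, genes were kept by filterByExpr in edgeR 4.0.16 (minimum count 10, minimum total 15; 16099 kept), scaled by TMM and fitted by a robust quasi-likelihood model of the 4 group means. The SE was derived from the fold change and its F statistic. Alternatives were RLE, upper quartile or no scaling, 2 other filters (none, or 1 CPM in 5 libraries), DESeq2 1.42.0 and non-robust estimates. Another was limma 3.58.1 voom with quality weights, which gives libraries unequal weight and is named limma voom here. Further alternatives were a replicate block, fits to only the groups compared, and fits without single libraries or sets of them. Coordinates, exon lengths and the absence of overlapping exons of other genes for all 10 members come from the deposited annotation.

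The members and lists were chosen with earlier results of these data known. Genes named from a list are up to 4 called genes with the smallest p or, with none called, at most 2. Named likewise are the defining markers and the 10 genes most like and 3 least like the members. A called gene of the list of upstream regulators is not reported here.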

Additional observations from a re-analysis of the deposited data

Results flagged for a closer look

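Of 40 sets of 5 libraries (10 members in 4 groups), 8 held a library set apart from the other 4 by a gap above 0.71 of the whole range. For independent values from a normal distribution chance flags about 1 in 20. The 40 sets share the same 20 libraries and CPM need not be normal, so 8 of 40 cannot be set against that rate. In normal 22-month mice these were Fos (35.98 CPM) and Junb (103.05 CPM), both in replicate 2. Among normal 6-month libraries Junb was low in replicate 5 (17.54 CPM). In dwarf 6-month mice Fosb (4.31 CPM) and Nr4a1 (134.8 CPM) were high in replicate 3, and Junb (47.25 CPM) and Atf3 (9.44 CPM) were high in replicate 2. In dwarf 22-month mice Fosb was high in replicate 2 (4.74 CPM). No member had a difference of age responses between genotypes that passed the adjusted threshold with edgeR (0 of 10, with 7 at an unadjusted p under 0.05, and 1 with DESeq2 and with limma voom).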

How the results depend on the processing

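In the order age in normal mice, age in dwarf mice, genotype at 6 months, genotype at 22 months and the difference of age responses, edgeR called 1086, 1802, 735, 614 and 0 genes. DESeq2 called 1766, 2747, 1414, 1201 and 17, and limma voom 3803, 7492, 1855, 2266 and 9. With only the groups compared the counts were 0, 5169 and 244 for the first 3 comparisons. Leaving out the libraries in doubt gave 4848, 4697, 1991, 1762 and 202. Leaving out title numbers 21 to 23 gave 188 for age in normal mice and 323 for genotype at 22 months, and summing dwarf 22-month replicates 1 and 4 gave 1107 for dwarf ageing and 272 for the genotypes at 22 months. Title numbers other than 21 to 23 run within groups, so for them order and group cannot be told apart.

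Members called numbered 1, 3, 0, 4 and 0. For age in normal mice the count was 0 with only the groups compared, without title numbers 21 to 23 and with the summed libraries. For age in dwarf mice it was 8 with limma voom, 5 with only the groups compared, 6 without the libraries in doubt, and 2, Egr2 and Ier2, both without title numbers 21 to 23 and with the summed libraries, where Fos had an adjusted p of 0.0698 and 0.0822. For genotype at 6 months it was 2 with limma voom and 1, Jun, without title numbers 21 to 23. At 22 months it was 7 with limma voom, 5 with DESeq2, which added Fosb, 5 without the libraries in doubt, 3 with only the groups compared and with the summed libraries, both losing Ier2, and 2, Junb and Egr2, without title numbers 21 to 23, and for the difference of age responses it was 1 with DESeq2 and with limma voom. Where these counts differ the cause was not tested.

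With 1 library left out, members called ranged from 0 to 1, 0 to 3, 0 to 1, 2 to 5 and 0 to 0, and all genes called from 481 to 4384, 802 to 1681, 369 to 1459, 262 to 637 and 0 to 1. The sign turned within these ranges for 8 values that were not called in the fit over all libraries: age in normal mice for Fos (-0.0415 to 0.53), Jun (-0.42 to 0.0657), Egr1 (-0.37 to 0.36) and Ier2 (-0.10 to 0.22), age in dwarf mice for Atf3 (-0.18 to 0.31), and genotype at 6 months for Fosb (-0.26 to 0.14), Egr2 (-0.17 to 0.20) and Ier2 (-0.12 to 0.12).

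Other settings turned the sign of uncalled values only. In normal mice with age these were Jun (0.097 without the libraries in doubt), Egr1 (0.0997 with the replicate block, 0.548 without title numbers 21 to 23), Egr3 (-0.028 with limma voom, -0.252 without the libraries in doubt) and Ier2 (-0.0258 with limma voom). In dwarf mice with age it was Atf3 (-0.0053 with no filter). At 6 months they were Fosb (0.151 without title numbers 21 to 23), Egr1 (-0.139 without the libraries in doubt), Egr2 (0.0221 with upper quartile scaling, 0.0130 with no filter, 0.0120 with the replicate block, 0.217 without title numbers 21 to 23) and Ier2 (-0.0256 with RLE, -0.0172 with DESeq2, -0.0107 with limma voom, -0.0437 with only the groups compared, -0.106 without title numbers 21 to 23, -0.0287 with the summed libraries). Of single-member values under these settings 592 kept their direction and side of the threshold, 20 newly passed, 9 no longer passed and 19 turned.

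Over 30 pairs of libraries with the same replicate number r ran from -0.24 to 0.75 with a median of 0.023, and 12 were over 0.1. Pairs of replicates 2 were all positive (0.096 to 0.75). Pairs with unlike numbers were not set beside them, so these values do not settle whether the numbers pair libraries. With the replicate block the members called were 1, 3, 0, 4 and 0 and all genes called 1118, 1904, 672, 560 and 0. The share of calls that were higher moved with scaling, from 51.3% to 65.1% with upper quartile scaling and 65.3% with total counts for genotype at 22 months, and from 26.1% to 38.2% with total counts for age in dwarf mice. The median correlation between members was 0.26, and 0.14 without the libraries in doubt, 0.26 by Spearman and 0.20 with TMM scaling. Depth limits Egr2, Egr3, Atf3 and Fosb, with as few as 2, 2, 3 and 4 counts in a library.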
